A study of Mus musculus with 10 samples.

Results

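Chemokines and their receptors were examined in lung RNA from mice fed 2 high-fat diets. The members were all rows of the deposited gene table whose symbol begins with Ccl, Cxcl, Ccr or Cxcr followed by a digit. There were 54 such genes among 24059 gene symbols, 37 for ligands and 17 for receptors. Of the 54, 38 had a count in at least 1 mouse, 16 had none, and only 3 passed the filter on low counts. Female C57Bl/6 mice received for 8 weeks either FO, a semipurified diet rich in menhaden fish oil, or CO, its counterpart rich in coconut oil, with 5 mice in each group. Both diets were high in fat and contained cholesterol and some corn oil, and no group on ordinary chow was analysed here. All mice were labelled as 14 weeks old, had undergone pulmonary function testing, and had their lungs flushed with PBS before whole-lung RNA was taken. The comparison asks which transcripts of the lung differed between an n-3 fatty acid diet and a saturated fat diet.

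Chemokines are small secreted proteins that guide leukocytes by binding G protein-coupled receptors on the cell surface. CC ligands have their first pair of conserved cysteines side by side, whereas CXC ligands have 1 other residue between them. In the lung they are made by epithelium, endothelium, fibroblasts and macrophages and help to set which leukocytes enter, stay and leave.

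The cysteine motif is visible in the coding sequence of 6 ligands, which are shown because their level or their fold change carries the results. Each line is a stretch of the GENCODE coding sequence for GRCm38, read 5′ to 3′, with the cysteine codons of the motif in capitals.
Ccl6: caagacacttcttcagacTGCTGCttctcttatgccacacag
Ccl9: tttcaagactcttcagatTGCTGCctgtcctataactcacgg
Cxcl12: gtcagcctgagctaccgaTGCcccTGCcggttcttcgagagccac
Cxcl13: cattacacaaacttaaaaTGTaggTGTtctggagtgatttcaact
Cxcl14: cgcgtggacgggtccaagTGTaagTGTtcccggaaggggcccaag
Cxcl15: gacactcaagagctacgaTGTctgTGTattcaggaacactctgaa
Both CC ligands have adjacent cysteine codons, and the 4 CXC ligands have 1 codon between them. Of these 4, only Cxcl15 has codons for glutamate, leucine and arginine directly before the motif, the signature of CXC ligands that attract neutrophils.

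The depth of the libraries limits what can be said about most of these genes. Total counts ranged from 229766 to 1124963 per mouse, of which Rn45s, the precursor of ribosomal RNA, took 21.8% to 87.0%. This left between 45177 counts in CO 1 and 473254 counts in FO 2 for all other genes. Malat1, a nuclear non-coding RNA, made up 8.53% of these in FO 2 and 6.15% in CO 5, against 0.135% to 1.05% in the other mice. The kit and the sequencer of each mouse are not given in the sources used here, so a library batch and the diet cannot be told apart. All 12 lung epithelial markers had counts, with a summed level of 2977 to 4809 CPM in FO and 2523 to 4362 CPM in CO, as the tissue label implies. CPM are read counts normalized to the size of the whole library including Rn45s, which was scaled by TMM, edgeR's correction for library composition. All 705 protein-coding symbols assigned to chromosome 15 were listed at 0 in every mouse, against 21.7% to 43.9% of symbols on the other autosomes and X. No chemokine gene lies on chromosome 15, but 6 genes of the comparison lists used further on do, namely Ext1, Krt79, Ly6c2, Ptk2, Rac2 and Sdc2.

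The 54 genes together received 2655 counts, 1571 in FO and 1084 in CO. The FO group was sequenced deeper, with 1097265 counts outside Rn45s against 774099 in CO. A higher raw count in FO, here and below, is therefore not by itself a higher rate. The share of the 54 genes in the counts outside Rn45s was 0.120% to 0.168% in FO mice and 0.102% to 0.182% in CO mice. Ligands held 92.3% of the 2655 counts and receptors 7.68%. The 3 genes with the most counts were Cxcl12, the ligand of Cxcr4, with 1016, Cxcl15, a chemokine of lung epithelium, with 730, and Ccl6, a macrophage chemokine, with 302. They held 77.1% of all chemokine counts. At the other end, 17 of the 38 genes with any count had fewer than 10 counts over all mice. The number of chemokine genes with a count ranged from 8 in CO 1 to 28 in FO 2. At the depth of CO 1 the expected number ranged from 8 in CO 1 and 9.12 in CO 5 to 16.5 in FO 5.

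**Figure D1:**
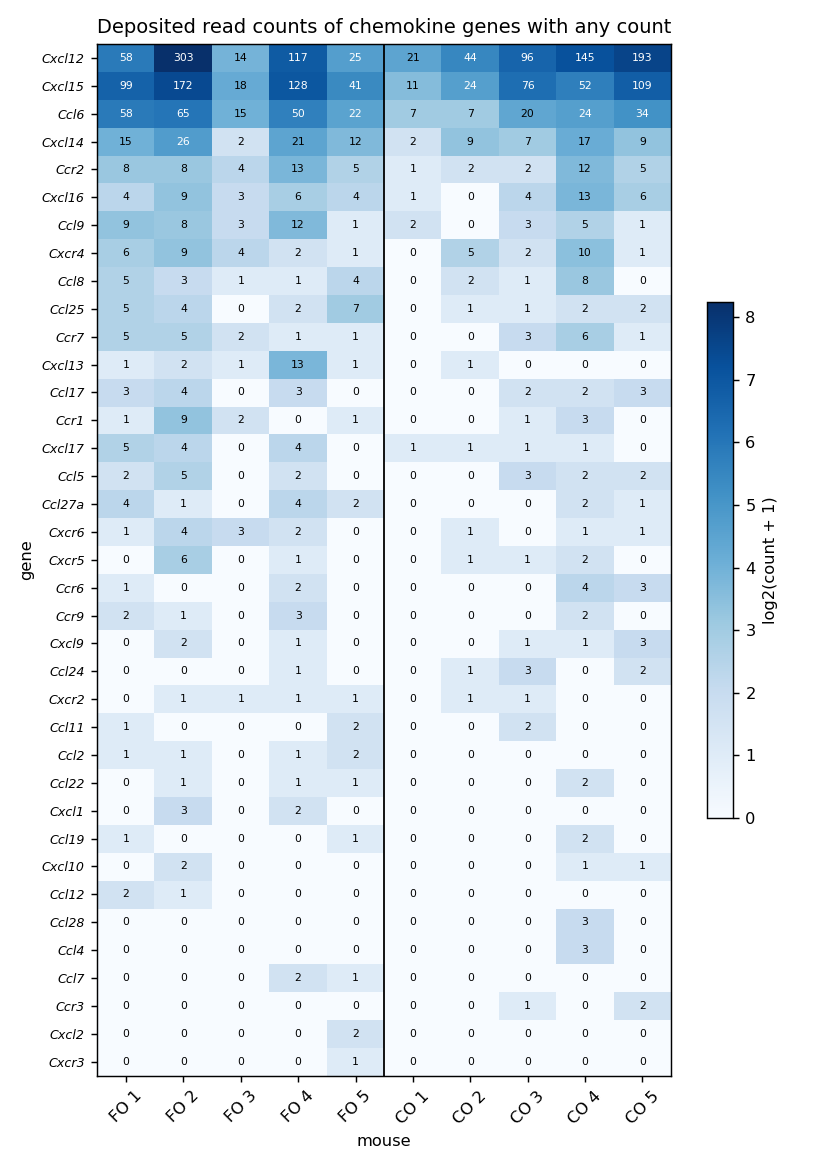
Deposited read counts of 37 chemokine genes with any count (rows, ordered by their total) in the 10 mice (columns, FO left of the line and CO right of it). Colour gives log2(count + 1) and each cell prints the count; Cxcl12, Cxcl15 and Ccl6 hold 77.1% of all counts, and most rows below them hold single-digit counts.

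Ccl6 was the only chemokine gene that passed the count filter and was higher in FO at an unadjusted p under 0.05. The genes tested after the filter were 2438, of which 1.68% were called higher and 1.23% lower in FO, and 3 of them were chemokine genes. Ccl6 was 1.72-fold higher in FO. The other two, Cxcl12 and Cxcl15, did not pass that threshold. Across all genes the smallest adjusted p was 0.377, and edgeR's quasi-likelihood test with Benjamini-Hochberg adjustment left 0 genes under 0.05 where 71 had an unadjusted p under 0.05.

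Ccl6 encodes a CC chemokine of macrophages and myeloid cells that binds Ccr1. The gene lies on chromosome 11 from 83587886 to 83593087 (GRCm38), close to the CC ligand genes Ccl3, Ccl4, Ccl5 and Ccl9. It overlaps the annotated gene E230016K23Rik, which was listed at 0 in every mouse. The level of Ccl6 was 66.7, 49.7, 96.8, 61.8 and 72.0 CPM in FO 1 to FO 5. In CO 1 to CO 5 it was 46.5, 37.3, 43.8, 25.2 and 44.6 CPM. Every FO mouse was above every CO mouse, although FO 2 and CO 1 lay close together, and the lowest level was in CO 4. Among all genes tested, 0.410% had groups that did not overlap. The means were 69.4 ± 17.4 CPM in FO and 39.5 ± 8.71 CPM in CO (SD, n = 5 each). The log2 fold change was 0.79 with a standard error of 0.28 (edgeR, p = 0.011, adjusted p = 0.998; two-sided exact permutation test over the mice, p = 0.0079, the smallest that 5 against 5 mice allow). With any single mouse left out the log2 fold change stayed between 0.63 and 0.90, and without both FO 2 and CO 5 it was 0.996. It was 0.31 and no longer passed the threshold when counts were scaled by library size alone, a scaling that set the median log2 fold change of all genes tested at -0.55. With Rn45s left out, scaling by library size alone gave 0.80, which passed.

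Markers of neutrophils and alveolar macrophages, myeloid cells known to express Ccl6, were also compared between the diets. Their relation to Ccl6 across mice was not tested. Among 15 neutrophil markers 12 had counts. Their summed level was 67.7 to 321.8 CPM in FO and 36.3 to 63.3 CPM in CO. Elane and Mpo, which mark immature neutrophils, were at 0. Of the 12, 6 were called higher in the fit of genes with any count, where 2.58% of all genes were. S100a9 and S100a8, the neutrophil markers with the most counts, encode the subunits of calprotectin. S100a9 had 74.6 ± 52.0 CPM in FO and 13.8 ± 5.19 CPM in CO (SD, n = 5), a log2 fold change of 2.27. S100a8, which did not pass the filter, had 52.3 ± 38.2 and 17.3 ± 5.92 CPM. The FO mice thus varied more in neutrophil markers than in Ccl6.

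Alveolar macrophage markers had a higher sum in most FO mice, but not every marker was higher. After the filter 1 of the 3 tested was called higher. In the fit of genes with any count it was 4 of 14, where 2.58% of all genes were called higher. Among 15 such markers 14 had counts, and their sum was 284.0 to 461.6 CPM in FO and 144.1 to 290.5 CPM in CO, so that the groups just overlapped. Krt79, on chromosome 15, was at 0. Of the 14, 10 had a positive log2 fold change in the fit of genes with any count. Chil3, with 96 counts, was at 15.9 ± 5.59 CPM in FO and 18.5 ± 9.22 CPM in CO, a log2 fold change of -0.17. Ear1, Ear2 and Ctsk, with 11 counts or fewer each, were also negative. Lpl, lipoprotein lipase, was at 221.9 ± 79.2 CPM in FO and 141.9 ± 88.1 CPM in CO (two-sided exact permutation test, p = 0.159). Fabp4, a fatty acid-binding protein of alveolar macrophages and endothelium, was at 60.8 ± 28.3 and 28.1 ± 15.5 CPM, a log2 fold change of 1.05 that passed the unadjusted threshold (edgeR, p = 0.017; two-sided exact permutation test, p = 0.040). Monocyte and interstitial macrophage markers overlapped widely, from 403.1 to 900.2 CPM in FO and from 311.4 to 638.0 CPM in CO. The part of these cells in the Ccl6 result was not tested. In whole-lung RNA, more cells of a type and more RNA per cell cannot be told apart.

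Ccl9, a second Ccr1 ligand of macrophages, lies 9249 bp from Ccl6 on chromosome 11. It had 44 counts and did not pass the filter. From here on, such genes were taken from a fit of all 14161 genes with any count. Ccl9 was at 10.3, 6.22, 15.1, 14.9 and 3.04 CPM in FO 1 to FO 5 and at 10.4, 0, 6.49, 5.26 and 1.35 CPM in CO 1 to CO 5. The groups overlapped, with FO 5 low and CO 1 high. Its log2 fold change was 1.12 with a standard error of 0.66 (edgeR, p = 0.090; two-sided exact permutation test, p = 0.127).

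In the fit of genes with any count, 4 chemokine genes were called higher in FO (Ccl2, Ccl6, Cxcl1 and Cxcl13) and 5 lower (Ccl24, Ccl28, Ccl4, Ccr3 and Cxcl12), where 4.15% of all genes passed, 2.58% as higher and 1.57% as lower. Of the 38 only Ccl6 had groups that did not overlap, against 0.424% of all genes in that fit. All had an adjusted p of 0.905. For 6 of these 9 genes the call rested on 3 to 7 counts, and those are described by their counts. DESeq2 on the same genes called Ccl6 and Cxcl13 higher and Cxcl12 lower, and none of the other six.

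**Figure D2:**
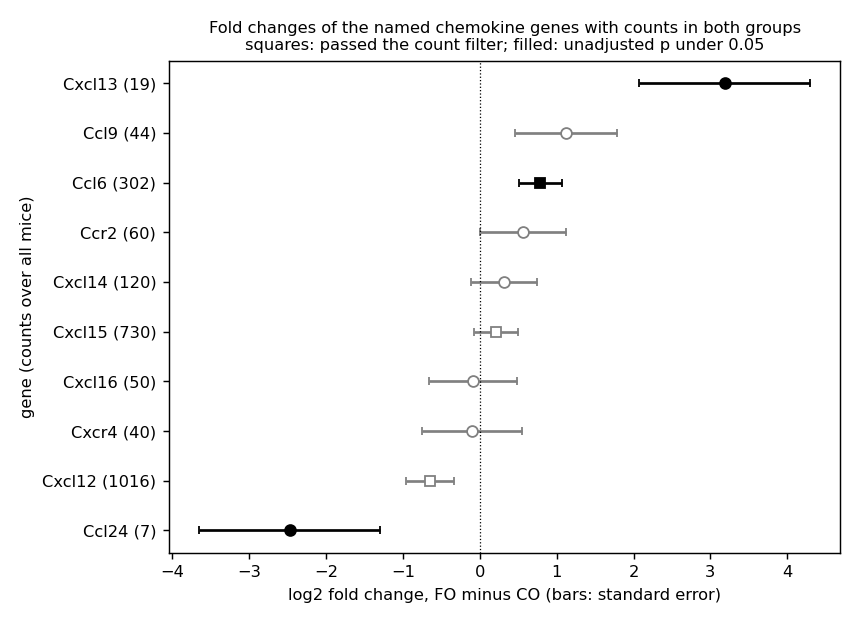
Log2 fold change of FO minus CO (horizontal axis, bars are the standard error) for the 10 named chemokine genes with counts in both groups, with the number of counts over all mice after each name. Squares passed the count filter and circles come from the fit of all genes with any count, filled symbols have an unadjusted p under 0.05, and the largest fold changes in either direction belong to Cxcl13 with 19 counts and Ccl24 with 7.

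The ligands of Ccr2, which draw monocytes out of bone marrow and into tissue, are Ccl2, Ccl7 and Ccl12. Together they had 11 counts in FO and 0 in CO. Relative to the counts outside Rn45s, the FO rate was 2.59-fold that of a floor of 3 counts over the CO group. This value is not a lower bound, since it leaves out the counting error of the 11 counts and the spread between mice. Ccl2 accounted for 5 of these counts, with 1 each in FO 1, FO 2 and FO 4 and 2 in FO 5 (two-sided exact permutation test on CPM, p = 0.048). No mouse had more than 2 counts for any of the 3 ligands, and FO 3, the shallowest FO library, had none.

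Ccr2 itself, the receptor that marks classical monocytes, had 60 counts, the most of any receptor. Its level was 9.16, 6.22, 20.1, 16.2 and 15.2 CPM in FO 1 to FO 5. In CO 1 to CO 5 it was 5.19, 8.73, 4.33, 12.6 and 6.73 CPM. FO 3, FO 4 and FO 5 lay above all CO mice, while FO 1 and FO 2 lay among them. The means were 13.4 ± 5.60 and 7.52 ± 3.31 CPM (SD, n = 5) and the log2 fold change was 0.56 with a standard error of 0.56 (edgeR, p = 0.320; two-sided exact permutation test, p = 0.079).

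Among the neutrophil-attracting ligands of Cxcr2, Cxcl1 had 5 counts and Cxcl2 had 2, all in FO, while Cxcl3 and Cxcl5 had none. Together they had 7 counts in FO and 0 in CO. The Cxcl1 counts came from FO 2 with 3 and FO 4 with 2 (two-sided exact permutation test on CPM, p = 0.444), and those of Cxcl2 from FO 5 alone. Cxcr2, their receptor on neutrophils, had 6 counts spread over both groups, with no more than 1 in a mouse. Cxcr1 had none.

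Other CC ligands with an unadjusted p under 0.05 were lower in FO and had few counts. Ccl24, an eotaxin that attracts eosinophils, had 1 count in FO 4 and 1, 3 and 2 counts in CO 2, CO 3 and CO 5. The ratio of FO to CO was 0.118 (95% exact interval 0.0026 to 0.969, counting error only). Over the mice the difference was not resolved (two-sided exact permutation test on CPM, p = 0.167). Ccr3, the eotaxin receptor, had 1 count in CO 3 and 2 in CO 5 and none in FO (two-sided exact permutation test on CPM, p = 0.444). Of 10 eosinophil and mast cell markers 6 had counts, and Epx, Prg2, Tpsb2 and Fcer1a were at 0. The sum of that list was 9.95 to 16.0 CPM in FO and 8.73 to 22.9 CPM in CO, so the groups overlapped. Ccl28, a mucosal ligand of Ccr10, and Ccl4, an inflammatory chemokine of macrophages and lymphocytes, each had 3 counts, all in CO 4, which had the smallest share of Rn45s. Such a count equals the floor, and no fold change is given for either gene.

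Cxcl12 was the chemokine gene with the most counts. It is made mainly by stromal and endothelial cells and retains leukocytes and progenitors that carry Cxcr4. It lies on chromosome 6 from 117168535 to 117181368 (GRCm38). In FO 1 to FO 5 it was at 66.7, 231.6, 90.3, 144.5 and 81.9 CPM. In CO 1 to CO 5 it was at 139.6, 234.4, 210.3, 152.2 and 253.3 CPM. FO 2 lay above the other FO mice and within the CO range, and FO 4 lay just above the lowest CO mouse. FO 2 and CO 5, the highest mouse of each group, were the mice with high Malat1. The means were 123.0 ± 67.4 CPM in FO and 197.9 ± 50.1 CPM in CO (SD, n = 5).

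The log2 fold change of Cxcl12 was -0.65 with a standard error of 0.31, which missed the threshold (edgeR, p = 0.052, adjusted p = 0.998; two-sided exact permutation test, p = 0.095). Without FO 2 it was -1.03 and without both FO 2 and CO 5 it was -0.91, and both values passed. It passed in 13 of 21 alternatives, these included, and with DESeq2 it was -0.67 and did not. The direction was negative in all 21. Whether Cxcl12 is counted as lower in FO therefore depended on the fit and on the mice included. It also passed without FO 4, CO 1 or CO 4. The summed level of endothelial and lymphatic markers was 266.5 to 554.4 CPM in FO and 249.0 to 470.0 CPM in CO, and that of fibroblast and mesothelial markers was 306.7 to 436.2 and 284.0 to 410.8 CPM. Both lists overlapped between the diets. Of 5 endothelial and lymphatic markers tested after the filter, 1 had a positive log2 fold change and the median was -0.26. Of 6 fibroblast and mesothelial markers tested, 4 were positive and the median was 0.13, beside 0.00 over all genes tested. The part of these cells in the Cxcl12 result was not tested.

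Cxcr4, the receptor of Cxcl12, had 40 counts and a log2 fold change of -0.11 with a standard error of 0.65 (two-sided exact permutation test, p = 0.952). FO mice ranged from 2.49 to 20.1 CPM around a median of 6.87, and CO mice from 0 to 21.8 around 4.33 CPM. FO 3 and CO 2, both shallow libraries, were the highest of their groups, with 4 and 5 counts. The sign of the difference changed with the mouse left out.

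**Figure D3:**
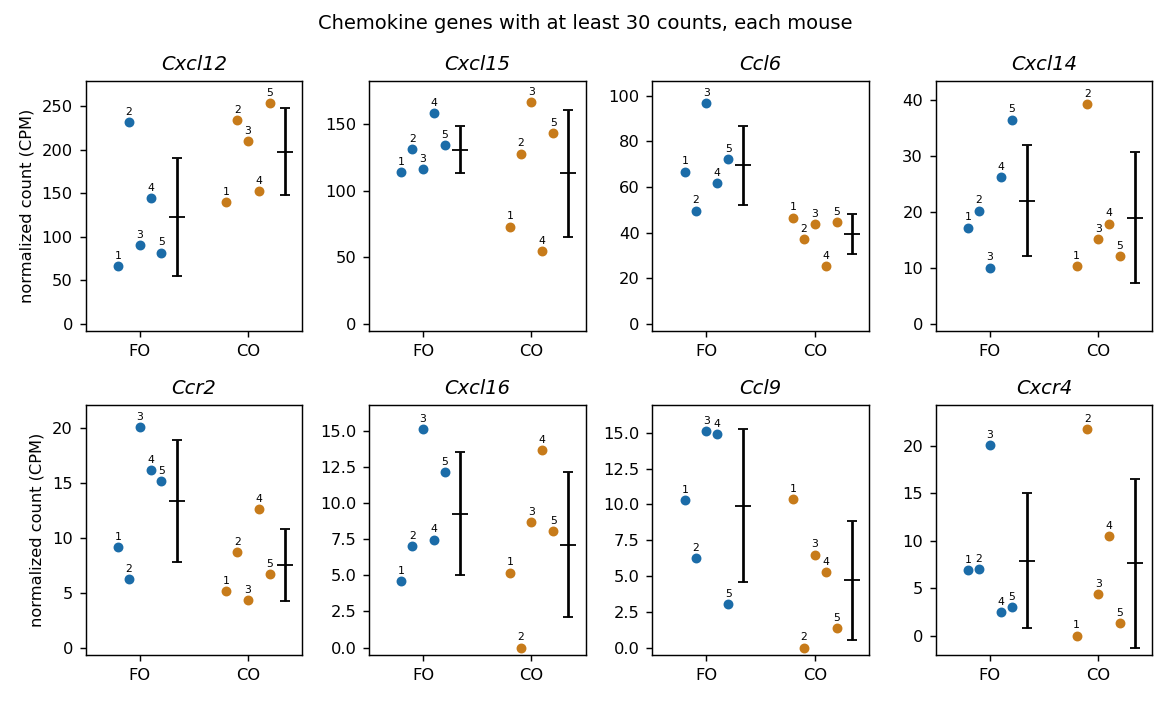
Normalized counts (CPM, linear axes) of the 8 chemokine genes with at least 30 counts in each mouse, numbered by replicate, with the mean and SD of the 5 mice beside the points. Cxcl12, Cxcl15 and Ccl6 are scaled in the filtered fit and the others in the fit of genes with any count. Only in Ccl6 do the FO and CO mice not overlap, and FO 2 is the highest FO mouse in Cxcl12.

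Cxcl15, also called lungkine, is secreted by lung epithelium and attracts neutrophils. The gene lies on chromosome 5 from 90794534 to 90803067 (GRCm38). Its level was 113.9, 131.4, 116.1, 158.1 and 134.3 CPM in FO 1 to FO 5. In CO 1 to CO 5 it was 73.1, 127.8, 166.5, 54.6 and 143.1 CPM. The FO mice lay inside the range of the CO mice, of which CO 1 and CO 4 were low. The means of 130.8 ± 17.7 and 113.0 ± 47.4 CPM (SD, n = 5) gave a log2 fold change of 0.21 with a standard error of 0.28 (edgeR, p = 0.471; two-sided exact permutation test, p = 0.452). This difference was smaller than the spread between CO mice.

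Cxcl14, a chemokine of epithelium and fibroblasts, had 120 counts and was at 22.0 ± 9.93 CPM in FO and 19.0 ± 11.7 CPM in CO (SD, n = 5). The FO mice were at 17.2, 20.2, 10.1, 26.1 and 36.4 CPM and the CO mice at 10.4, 39.3, 15.1, 17.9 and 12.1 CPM. CO 2 was the highest of all mice and the groups overlapped. The log2 fold change was 0.31 with a standard error of 0.43 (edgeR, p = 0.466; two-sided exact permutation test, p = 0.659). Cxcl16, a transmembrane chemokine and ligand of Cxcr6, had 50 counts and a log2 fold change of -0.09 with a standard error of 0.57. Its range was 4.58 to 15.1 CPM in FO, with a median of 7.46, and 0 to 13.7 CPM in CO, with a median of 8.08.

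Cxcl13 attracts B cells to lymphoid follicles through Cxcr5. It had 18 counts in FO and 1 in CO, in CO 2. FO 4 alone had 13 of the 18, and the other FO mice had 1, 2, 1 and 1. Each FO mouse therefore had at least 1 count, against 1 of the 5 CO mice. The ratio of FO to CO was 12.7 (95% exact interval 2.01 to 529.1, counting error only). The log2 fold change was 3.18 with a standard error of 1.11 (edgeR, p = 0.0041; two-sided exact permutation test, p = 0.095), and without FO 4 it was 1.85 (p = 0.141). Cxcr5 had 11 counts, 6 of them in FO 2. The summed level of B cell markers was 5.03 to 39.5 CPM in FO and 10.4 to 66.3 CPM in CO.

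The remaining 23 genes with a count had 248 counts in all and no more than 9 in any mouse, and none had an unadjusted p under 0.05. Of these, 18 had a positive and 5 a negative log2 fold change, beside a median of 0.05 over all genes with any count. Ccl8, a ligand of Ccr8, and Ccl25, the Ccr9 ligand, had 25 and 24 counts. The Ccr4 ligands Ccl17 and Ccl22 had 13 counts in FO and 9 in CO. The interferon-induced Cxcr3 ligands Cxcl9 and Cxcl10 had 5 counts in FO and 7 in CO, and Cxcr3 itself had 1 count. The receptor with the next most counts after Ccr2 and Cxcr4 was Ccr7, which guides dendritic and T cells to lymph nodes, with 24. In all, the 7 CC receptors with a count had 133 and the 5 CXC receptors had 71.

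Levels of different genes were compared per kilobase of exon, on the scale of the fit of genes with any count. The length was that of all exons of all annotated transcripts of a gene, merged. It can exceed the length of the transcripts that gave the reads, so the order of the genes depends on this choice. Cxcl15 was the highest at 54.0 ± 18.2 CPM per kb (SD over the 10 mice), followed by Ccl6 at 28.0 ± 9.45, Cxcl12 at 18.5 ± 8.65 and Cxcl14 at 11.2 ± 5.67. Cxcl12 thus had the most counts but only the third level per merged exon length, which was 8176 bp against 2127 bp in Cxcl15. Each of these genes overlapped the next within 1 SD, but that SD is over mice of both diets. Within each diet the lowest mouse for Cxcl15 was just above the highest for Ccl6. The values were 42.6 against 42.0 CPM per kb in FO and 25.7 against 25.5 in CO. The ranges of Ccl6 and Cxcl12, and of Cxcl12 and Cxcl14, overlapped within each diet. In FO mice Ccl6 was at 35.8 ± 5.05 CPM per kb and Cxcl12 at 14.5 ± 8.92, whereas in CO mice they were at 20.2 ± 4.78 and 22.5 ± 6.98. Of the receptors, Cxcr4 was the highest at 4.29 ± 4.21 CPM per kb. Ccr2, with merged exons of 6760 bp against 1808 bp in Cxcr4, was at 1.55 ± 0.787.

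**Figure D4:**
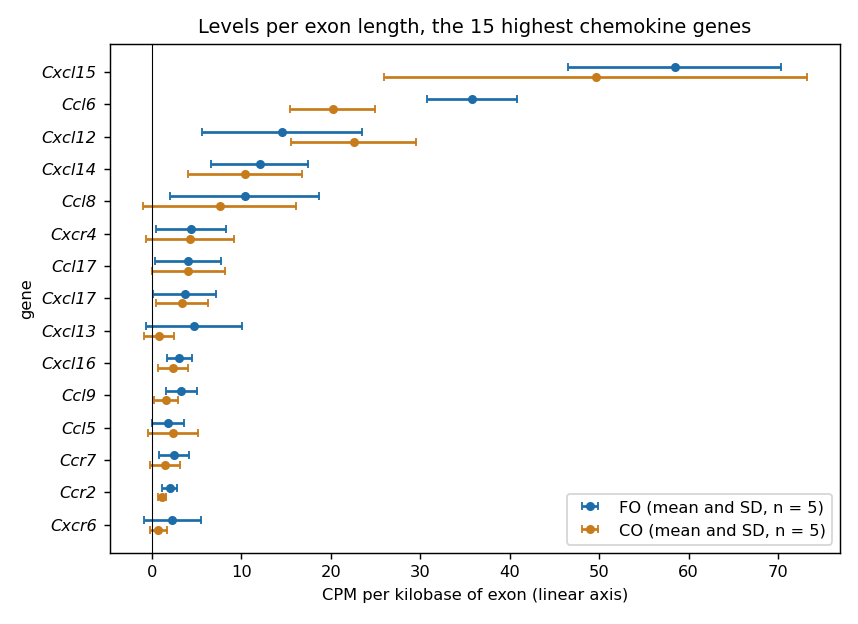
Level per exon length (CPM per kilobase, linear axis) of the 15 highest chemokine genes, as mean and SD of the 5 FO and the 5 CO mice. Exon length merges the exons of all annotated transcripts of a gene. On this scale Cxcl15 is the highest in both groups, and the mean of Ccl6 is above that of Cxcl12 in FO only, at 35.8 against 14.5 CPM per kb.

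The 16 genes listed at 0 were Ccl1, Ccl3, Ccl20, Ccl21a, Ccl21b, Ccl21c, Ccl26, Ccl27b, Cxcl3, Cxcl5, Cxcl11, Ccr1l1, Ccr4, Ccr8, Ccr10 and Cxcr1. A count of 0 over all mice allows up to 3 counts, or 1.60 CPM of the counts outside Rn45s, counting error only. For 11 of the 15 with a transcript model, at least 90% of 50-base words occurred in no other gene, so few reads of that length would match another gene. The read length is not given in the sources used here, and the 50-base word is a choice. For Ccl21a 28.4% of the words were unique, for Ccl27b 1.86% and for Ccl21b 0%, and how reads that match several places were counted is not given. The coding sequences of Ccl21a and Ccl21b, ligands of Ccr7 on lymphatic endothelium, were 99.5% identical over 399 nt. They differed by T84A and C194T, Ccl21a first and counted from the first base of the start codon. The stretch around the first of these is shown to make plain how little separates the copies, with the differing base in capitals.
Ccl21a: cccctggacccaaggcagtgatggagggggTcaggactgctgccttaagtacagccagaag
Ccl21b: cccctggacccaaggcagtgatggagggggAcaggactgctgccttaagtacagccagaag
Nothing can be read from the counts about the level of these Ccr7 ligands. Ccl19, the other one, had 4 counts with 48.0% unique words, and Ccl27a 14 counts with 55.0%.

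**Figure D5:**
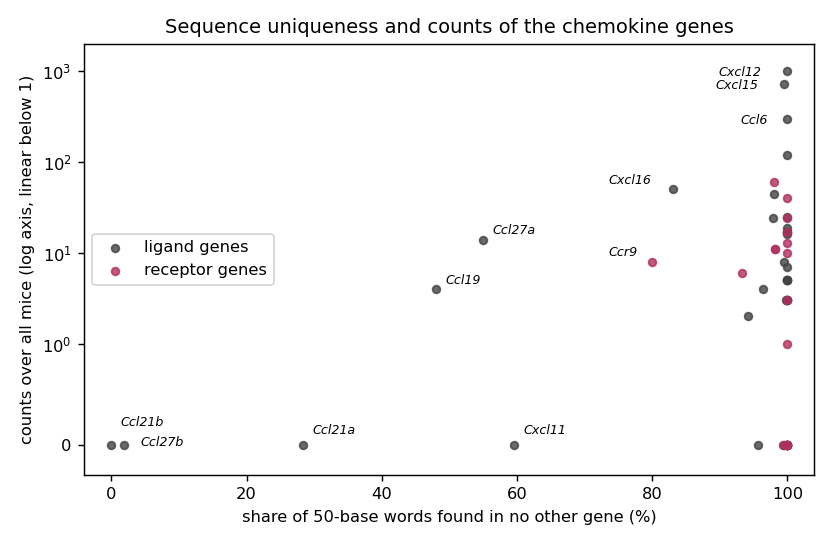
Share of 50-base words of each gene's transcripts found in no other gene (horizontal axis, %) against its counts over all mice (vertical axis, logarithmic above 1), for the 53 chemokine genes with a transcript model. Ccl21b, Ccl27b and Ccl21a lie at the left with 0 counts, and 34 of the 38 genes with a count have at least 90% unique words.

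Other genes of the chemokine system were compared from lists. Of 81 genes that carry the receptor signal (G proteins, arrestins, kinases and small GTPases), 40 were tested after the filter, 0 were higher and 1 was lower in FO, beside the 2.91% called in either direction over all genes tested. Their median log2 fold change was 0.01, against 0.00 over all genes tested. The lower one was Plcb1, a phospholipase C activated by G proteins, at 21.7 ± 10.1 CPM in FO and 36.7 ± 7.64 CPM in CO (SD, n = 5), with a log2 fold change of -0.70 (edgeR, p = 0.035; two-sided exact permutation test, p = 0.032). Of the 79 with any count, 0 were higher and 2 lower in the fit of those genes.

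Few genes of the other lists passed the filter, so these lists are also given as fitted without it, where 4.15% of all genes were called. The genes named from that fit here were chosen after their values were seen, and each had an adjusted p of 0.905 unless stated. Of 31 genes that induce or regulate chemokines, 5 passed the filter and none of them was called, with a median log2 fold change of 0.32. Counts were found for 25, of which 2 were called higher and 0 lower when all of these were fitted. Irf7, a transcription factor of the interferon response, ranged from 5.44 to 15.2 CPM in FO and from 0 to 5.39 CPM in CO, a log2 fold change of 1.48 with groups that did not overlap (two-sided exact permutation test, p = 0.0079). The lowest FO mouse was just above the highest CO mouse. Atf3, a stress-induced transcription factor, had a log2 fold change of 1.02 and overlapped between the groups (two-sided exact permutation test, p = 0.659). The cytokines Tnf, Ifng, Il1a, Il4, Il13 and Il17a were listed at 0.

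Of 24 genes that degrade or bind chemokines, 19 had counts, with 1 called higher and 1 lower. Mmp8, a neutrophil collagenase that is also among the neutrophil markers, had 13 counts in FO and 1 in CO (two-sided exact permutation test, p = 0.048). Hs2st1, an enzyme that sulphates heparan sulphate, ranged from 0 to 30.9 CPM in FO and from 17.5 to 51.9 CPM in CO, a log2 fold change of -1.11 (two-sided exact permutation test, p = 0.048). Among 21 chemokine-system genes outside the symbol pattern, such as the fractalkine receptor Cx3cr1, 18 had counts, with 0 called higher and 1 lower. That one was Cmtm4, a membrane protein, with 4 counts in FO and 23 in CO (two-sided exact permutation test, p = 0.167).

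Markers of platelets and of striated muscle also had calls in the fit of genes with any count. Of 7 platelet markers 7 had counts, 7 had a positive log2 fold change and 2 were called higher, Clec1b with 18 counts in FO and 2 in CO and Gp9 with 6 and 0. The sum of that list was 29.5 to 69.8 CPM in FO and 9.43 to 41.5 CPM in CO. Of 9 muscle markers, 8 had a positive log2 fold change and 3 were called higher, Ttn with 177 counts in FO and 34 in CO, Tnnt2 with 99 and 27 and Tnni3 with 55 and 15, where Ttn had an adjusted p of 0.401. Their sum was 60.7 to 360.8 CPM in FO and 31.1 to 203.4 CPM in CO, and both lists overlapped between the groups. The part of these cells in the chemokine results was not tested.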

How the data were processed

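Whole-lung RNA of 10 mice was sequenced as single-end reads. Per the labels and the study's methods, the authors aligned reads with STAR 2.4.0f1 to mm10, sorted them with SAMtools 0.1.19 and counted them per gene with htseq-count. They deposited raw counts per gene symbol, without normalization. Annotation and strand setting are not given in the sources used here, so overlapping and antisense genes cannot be told apart. Libraries were made with TruSeq RNA v2 or riboZero. Each mouse was 1 library, and the permutation p-values measure the spread between mice. In the fit of genes with any count, the edgeR p could be much smaller than that spread allows. For Ccr3 it was 0.026 with edgeR against 0.444 with the exact permutation test. For Atf3 it was 0.017 with edgeR against 0.659 with the exact permutation test.

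Counts were tested in R 4.3.3 with edgeR 4.0.16 (TMM, default filter, quasi-likelihood test) at the study's threshold of an unadjusted p under 0.05. Benjamini-Hochberg adjustment was over all genes tested. The filter required a total of at least 15 counts and, in at least 5 mice, a CPM that equals 10 counts at the median library size, Rn45s included. The share of Rn45s thus affected which genes were tested, and Cxcl14 passed the filter when Rn45s was left out. For genes below the filter, values came from a fit of every gene with at least 1 count. Single genes were also tested with two-sided exact permutation tests over mice, on CPM. The script was tested on simulated data. Alternatives used DESeq2 1.42.0, limma 3.58.1, other scalings and filters, a replicate block and left-out mice. DESeq2 on genes with any count, and library size with Rn45s left out, were added after seeing the data. The floor was 3 counts.

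Named are the genes that passed the filter, those with an unadjusted p under 0.05 in the fit of any count, and those with at least 30 counts. Of other lists, up to 4 genes under that threshold were named, and beside a called gene the 2 markers with the most counts. The remaining genes, those listed at 0 among them, are given with their groups, and 1 gene is not reported here by name. Members and lists were chosen with earlier results of these data known. Of the marker lists not described in the report, 12 T and NK cell and 10 dendritic cell markers had counts, and 0 were called in the fit of genes with any count; only 1 of them passed the filter. Of 5 endothelial and lymphatic markers tested after the filter, Lyve1 was higher in FO (log2 fold change 0.62). Positions are those of RefSeq for GRCm38.p6, which assigned all 54 genes; exon lengths, words and sequences came from GENCODE M21.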

Additional observations from a re-analysis of the deposited data

Results flagged for a closer look

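In 10 of 29 groups of 5 mice tested, 1 mouse stood apart from the other 4 by its gap to the nearest, relative to the range of the group. Chance flags about 1 in 20 groups of continuous values, a rate that does not hold for a few counts. In 4 of the 10 the mouse was the only one of its group with a count, which sets it apart by construction. In the FO group, Ccl2 was at 6.07 CPM in FO 5, from 2 counts, against 0 to 1.24 CPM in the others. Ccl24 was at 1.24 CPM in FO 4, from 1 count, and at 0 in the others. Cxcl13 was at 16.2 CPM in FO 4, from 13 counts, against 1.15 to 5.03 CPM. Cxcr4 was at 20.1 CPM in FO 3, from 4 counts, above the other 4 mice.

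In the CO group, Ccl28 and Ccl4 were each at 3.16 CPM in CO 4, from 3 counts, and at 0 in the others. Cxcl13 was at 4.36 CPM in CO 2, from 1 count, and Cxcl14 was at 39.3 CPM in CO 2, from 9 counts, against 10.4 to 17.9 CPM. The share of Malat1 in the counts outside Rn45s was 8.53% in FO 2 and 6.15% in CO 5. These 2 mice also had the highest Cxcl12 level of their groups, and the relation between the 2 was not tested.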

How the results depend on the processing

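Ccl6 was higher in FO at an unadjusted p under 0.05 in 20 of 21 alternatives, with a log2 fold change from 0.31 to 0.996. The number of chemokine genes called higher was 1, and became 0 with library size alone, 4 with any count and 2 with DESeq2 on genes with any count. With each mouse left out in turn it stayed 1. The number called lower was 0. It became 5 with any count, and 1 with DESeq2 size factors, limma-voom, robust estimation, the replicate block, a minimum count of 3, Rn45s left out, library size alone with Rn45s left out, DESeq2 on genes with any count, and FO 2 and CO 5 both left out. With single mice left out it ranged from 0 to 1, and was 1 without FO 2, FO 4, CO 1 or CO 4. Where 1 gene was called lower it was Cxcl12.

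Signs turned for genes with small differences. With library size alone the log2 fold change was -0.060 for Ccr2, -0.11 for Cxcl14 and -0.16 for Cxcl15. For Cxcl16 it was 0.014 with DESeq2, 0.17 with limma-voom and 0.27 with the replicate block, and for Cxcr4 it was 0.034 with limma-voom. With single mice left out it ranged from -0.23 to 0.32 for Cxcl16, positive without FO 1 (0.11), FO 2 (0.01) or CO 4 (0.32), and from -0.47 to 0.40 for Cxcr4, positive without FO 4 (0.18), FO 5 (0.04), CO 2 (0.40) or CO 4 (0.26). The cause was not tested.

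Of the genes with 3 to 7 counts, none was called under DESeq2, limma-voom or the replicate block, apart from Ccl24 with limma-voom. Ccl9 passed the threshold without FO 2 (1.35) or FO 5 (1.32), and Cxcl13 lost it with limma-voom (1.34) and without FO 4. Same-numbered mice share only a number, and their deviations correlated at -0.12 on average, from -0.41 to 0.03. No mouse correlated best with its own number. With the replicate block Ccl6 stayed called and Cxcl12 passed the threshold at -0.76. Of the 38 genes with any count, 27 had at least 3 counts in 1 mouse. With a prior count of 0.5 in place of 2, the difference of mean log2 CPM of Ccl6 was 0.80 in place of 0.76. At this depth all chemokine genes but Ccl6, Cxcl12 and Cxcl15 had 26 counts or fewer in every mouse.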
